A study of Mus musculus with 3 samples.

Results

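Retinal astrocytes were picked out of single-cell RNA profiles of the injured mouse retina by the transcript of Pax2, the transcription factor that marks the astrocyte lineage from the optic stalk onwards. A cell counted as an astrocyte when it held at least 1 unique molecular identifier (UMI, a count of 1 captured RNA molecule) of Pax2, fewer than 4 UMIs per 10000 of the Müller glia genes Rlbp1, Aqp4 and Abca8a together, and fewer than 2 per 10000 of the microglial genes C1qa, C1qb and C1qc together. This rule found 176 astrocytes among 24695 cells, with 46, 67 and 63 in runs 1, 2 and 3. They were compared within each run with 17653 Müller glia, taken as cells with at least 5 Rlbp1 UMIs per 10000 and no Pax2 UMI. The other 6843 cells fell in neither class. Because the 7 genes just named chose the cells, they are described and not tested.

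All cells came from adult mice that carried Glast-CreERT2, Yap5SA and R26R-tdTomato as heterozygotes. Tamoxifen switched on Yap5SA, a form of the transcriptional co-activator YAP that the Hippo kinases cannot restrain, and the tdTomato reporter in cells that express Glast (Slc1a3), a glutamate transporter of astrocytes as well as Müller glia. The retinas were injured by injection of N-methyl-D-aspartate (NMDA), which overexcites and kills neurons. After 2 days the cells carrying tdTomato were isolated by sorting and their RNA was captured in 10X Chromium droplets. The labels give 1 group in 3 runs, without an uninjured or a Yap5SA-free retina, and name the sorted cells Müller glia, so the effects of Yap5SA, of the injury and of cell identity cannot be told apart.

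Retinal astrocytes do not arise from the retina itself. They migrate in from the optic nerve head along the inner surface, guided by platelet-derived growth factor that their receptor Pdgfra detects, and lay down the fibronectin-rich, Vegfa-secreting lattice on which retinal vessels grow. Müller glia, by contrast, are born from retinal progenitors, span the whole retina, and carry the machinery for recycling glutamate, clearing potassium and handling retinoids. After injury both cell types can become reactive, which is read from the intermediate filament gene Gfap and from acute-phase genes such as Lcn2.

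The runs held 7670, 8802 and 8223 cells with 94858762, 122888236 and 97032672 UMIs. The astrocytes made up 0.600% of the cells of run 1 (exact binomial 95% interval 0.439 to 0.799), 0.761% of run 2 (0.590 to 0.966) and 0.766% of run 3 (0.589 to 0.979), a mean of 0.709% ± 0.0947 (SD, n = 3 runs). The intervals cover counting error only. The median astrocyte held 14084.5 UMIs and 3682 genes, against 9303 UMIs and 2901 genes in Müller glia, and mitochondrial transcripts took a median of 5.27% and 5.25% of the UMIs. A barcode that also occurred in another run was seen in 6 astrocytes. The count table had no entry for tdTomato or Yap5SA, so recombination could not be read in single cells.

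Of the 176 astrocytes, 60 held 1 Pax2 UMI, 43 held 2 and 73 held 3 or more, with a maximum of 10. A Pax2 UMI was also found in 23 of the 17676 cells with at least 5 Rlbp1 UMIs per 10000 (0.130%, exact interval 0.0825 to 0.195, median 9308 UMIs). The part of free RNA in this share was not tested. The upper limit on Müller genes left out 42 further cells with Pax2 and the limit on C1q genes 3. Cells just inside the Müller limit (2 to 4 UMIs per 10000, 61 cells) had Gfap at 4775 CPM (counts per 1000000, the UMIs of a gene over the summed UMIs of its class) and Pdgfra at 259 CPM. Cells just outside it (4 to 8 per 10000, 24 cells) had Gfap at 4755 and Pdgfra at 338 CPM, close to those inside. In the 18 cells at 8 per 10000 or above, Gfap stood at 2464 and Pdgfra at 170 CPM. Another 37 cells had no Pax2 UMI, met the limits on Müller and C1q genes, and held at least 3 S100b UMIs and 1 Pdgfra UMI. Gfap, which did not choose them, stood at 7528 CPM in these cells. Their S100b level of 1216 CPM follows from the choice.

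The label was checked on genes the rule did not use. Gfap, the astrocyte intermediate filament (chr11:102887336-102900912 in mm10), stood at 5887, 4359 and 4719 CPM in the astrocytes of runs 1, 2 and 3 and at 828, 611 and 562 CPM in Müller glia. The protease inhibitor A2m (chr6:121635376-121679227) stood at 170.4, 143 and 121 CPM in astrocytes and 17.1, 10.9 and 10.8 CPM in Müller glia. The calcium-binding protein S100b (chr10:76253853-76261159) stood at 1298, 1072 and 796 CPM against 9.02, 9.19 and 8.35 CPM. For all 3 genes every astrocyte value lay above every Müller value. A Gfap UMI was present in 170 of the 176 astrocytes (96.6%), an S100b UMI in 168 (95.5%) and an A2m UMI in 109 (61.9%), while 83.1%, 7.13% and 9.75% of Müller glia held one.

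A small set of the chosen cells did not carry the astrocyte transcripts. The authors' log table holds 54.7% of all cells and 48.2% of the Müller glia, but 9 of the 176 astrocytes (5.11%; 1, 5 and 3 per run). How the authors chose those cells is not stated in the sources used here. In these 9 cells Gfap stood at 58.2 CPM against 5337 CPM in the other 167, S100b at 15.5 against 1142 CPM and Pdgfra at 3.88 against 261 CPM, and no UMI of A2m or Gja1 was found. The Müller glia gene Crym stood at 1280 against 184 CPM, and 8 of the 9 were in the cell cycle by the measure described further on. Of the 9, 8 held a single Pax2 UMI, and their median depth was 27413 UMIs against 13728 in the other 167. For the Lcn2 sets and the cell cycle, values without these 9 cells are given beside those with them.

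Markers of other cell types were summed by list. Of 13 microglial markers, Cx3cr1, Tmem119 and Csf1r were at 0, and the 10 markers the rule had not used summed to 67.7, 66.4 and 40.8 CPM, against 50.7, 44.2 and 33.5 CPM in Müller glia. Of 10 endothelial markers, Cldn5, Cdh5, Tek, Ly6c1, Emcn and Tie1 were at 0 and the list summed to 78.1, 73.7 and 84.8 CPM, against 626, 662 and 676 CPM. Kdr and Flt1 made up most of these sums, and nearly all in Müller glia. Both were called lower in astrocytes, while the other 2 tested genes, Pecam1 and Egfl7, did not pass. The difference in the sums thus rests on Kdr and Flt1. The 12 rod markers summed to 168, 173 and 103 CPM, against 1641, 1396 and 1521 CPM. The pericyte list summed to 1807, 1995 and 1767 CPM against 86.3, 75.4 and 87.2 CPM. Nearly all of that sum was Rgs5. The pericyte genes Kcnj8, Cspg4 and Notch3 were at 0, while of the 5 tested genes Rgs5, Acta2 and Tagln were called higher in astrocytes and Vtn and Pdgfrb lower by edgeR. The fibroblast and meninges list summed to 373, 270 and 271 CPM against 10.0, 7.98 and 9.63 CPM, with Col3a1 and Dcn at 0. Pdgfra, an astrocyte gene that the list also holds, made up most of that sum, and Pdgfra, Foxc1 and Col1a2 of its 5 tested genes were called higher. Col1a2 stood at 52.0, 55.9 and 52.6 against 6.03, 4.81 and 5.85 CPM and Acta2 at 9.11, 25.9 and 25.8 against 2.28, 3.63 and 4.03 CPM. The part of such cells in the results was not tested.

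Of 13949 genes tested, 2245 were higher in astrocytes than in Müller glia and 2632 lower, by edgeR's quasi-likelihood test on UMIs summed per run and class, with the run as a block and an adjusted p under 0.05. These are 35.0% of the tested genes, 16.1% higher and 18.9% lower, and every count below is to be read against those shares. A difference of at least 8-fold was reached by 371 of the higher and 462 of the lower genes, and the median over all tested genes was -0.09 on the log2 scale. With every cell thinned to 3000 UMIs, 901 genes were higher and 1449 lower. Both classes come from the same libraries and the labels do not call the runs separate animals, so the p-values measure the spread between runs, which may be technical. Since the classes were chosen on identity genes, differences in other identity genes follow in part from the choice.

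**Figure D1:**
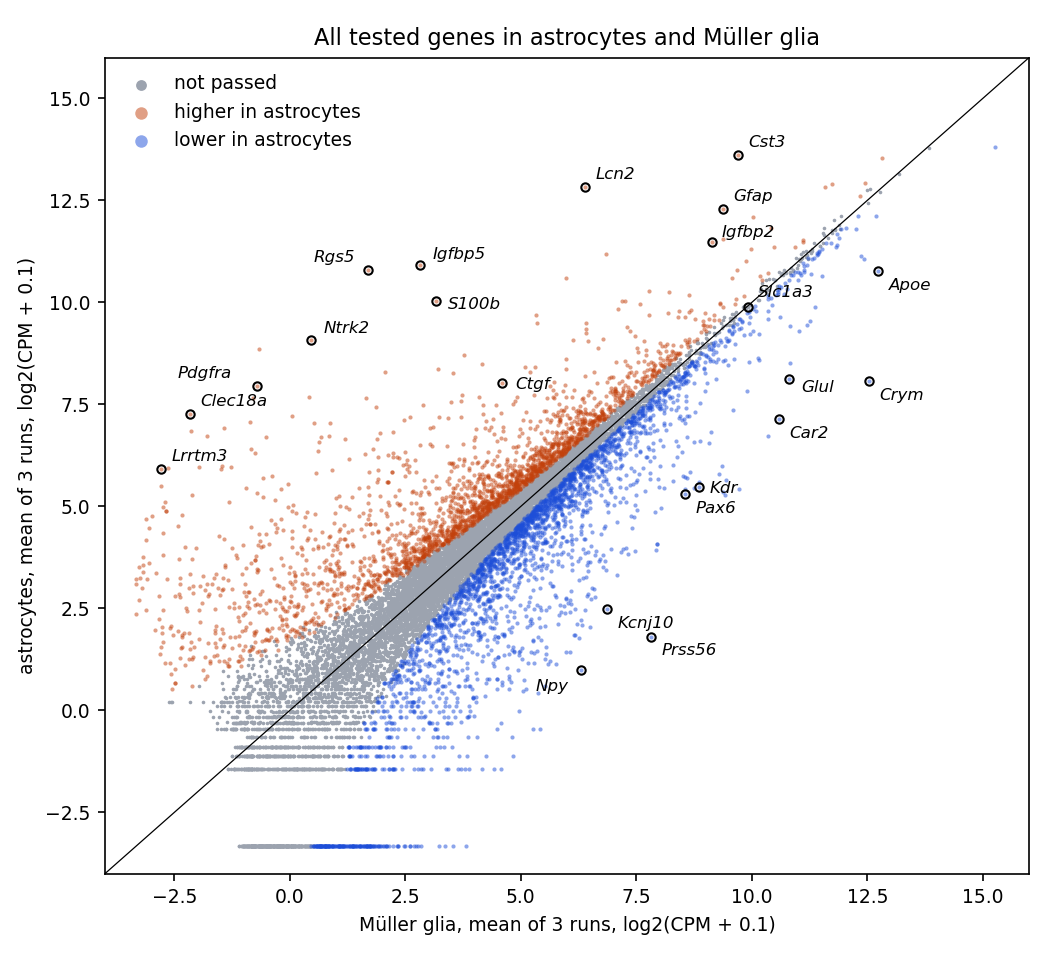
Each point is 1 of the 13949 tested genes, with the mean CPM of 3 runs in Müller glia (x) and in astrocytes (y), both as log2(CPM + 0.1), coloured by whether edgeR called it higher or lower in astrocytes. The astrocyte genes Lrrtm3, Clec18a, Pdgfra, Ntrk2 and Rgs5 stand far above the diagonal at Müller levels near 0, while Kcnj10, Prss56 and Npy stand far below it and Slc1a3 lies on it.

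The 15 largest rises were genes with little or no RNA in Müller glia. Pdgfra, the receptor for the growth factor that draws astrocytes into the retina (chr5:75152292-75198215), stood at 316, 208 and 214 CPM in astrocytes and at 0.638, 0.403 and 0.490 CPM in Müller glia (log2 change 8.84 ± 0.14, SE, adjusted p = 1.08e-27). Ntrk2, the receptor TrkB for brain-derived neurotrophic factor, stood at 644, 504 and 483 against 1.61, 1.03 and 1.19 CPM (log2 8.68 ± 0.12). Gja1, connexin 43 of the astrocyte gap junction, stood at 134, 97.9 and 112 against 0.134, 0.111 and 0.140 CPM (log2 9.69 ± 0.27). For none of these 3 genes did the classes overlap in any run, which is likely for genes chosen as the largest rises.

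Rgs5, a regulator of G protein signalling better known as a pericyte marker (chr1:169655501-169695813), stood at 1758, 1892 and 1672 CPM in astrocytes and 3.63, 3.14 and 2.59 CPM in Müller glia (log2 9.09 ± 0.12). Its relative Rgs4 stood at 179.5, 199 and 229 against 0.386, 0.723 and 0.315 CPM (log2 8.62 ± 0.18). Igfbp5, a secreted binding protein of insulin-like growth factors (chr1:72857932-72874884), stood at 2054, 1726 and 1984 against 9.15, 6.19 and 5.48 CPM (log2 8.07 ± 0.12). The Rgs5 and Igfbp5 transcripts were common among the astrocytes: a UMI was found in 160 and 164 of the 176, against 2.54% and 5.49% of Müller glia.

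Among the 15 genes with the largest rises were also Lect1 (chondromodulin, a matrix protein that restrains vessel growth, log2 9.73), Lrrtm3 (a synaptic adhesion protein, 10.28), Clec18a (a C-type lectin, 10.17), Sema6d (a transmembrane semaphorin, 9.88), Cybrd1 (a ferric reductase, 9.07), Timp4 (a metalloproteinase inhibitor, 8.70), Cd36 (a fatty acid receptor, 8.13), Fut9 (a fucosyltransferase, 7.58) and Cldn19 (a tight junction claudin, 7.43). Lrrtm3 had no UMI in the Müller glia of run 2, so its fitted change depends on the prior count. The rule that named the 15 asked for a rise in every run.

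The 15 largest falls included a channel, a crystallin and a protease. Kcnj10, the potassium channel Kir4.1 through which Müller glia clear potassium, stood at 3.903, 4.05 and 8.59 CPM in astrocytes and 114, 109 and 126 CPM in Müller glia (log2 -4.47 ± 0.21, adjusted p = 1.26e-16). Crym, a thyroid hormone-binding crystallin, stood at 198, 346 and 262 against 6846, 5685 and 5227 CPM (log2 -4.51 ± 0.13). The serine protease gene Prss56 stood at 0, 1.62 and 8.59 against 106, 136 and 433 CPM (log2 -6.10 ± 0.22), and its Müller level was highest in run 3.

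The other 12 falls were Npy (a neuropeptide, log2 -5.32), Apoc1 (an apolipoprotein, -4.69), Adam23 (-4.60), the homeobox gene Irx5 (-4.54), the peropsin gene Rrh (-4.39), the fatty acid ligase gene Acsl3 (-4.36), Enpp2 (autotaxin, -4.33), the G protein subunit gene Gna14 (-4.32), Fam159b (-4.25), Synpr (synaptoporin, -4.16), Cntfr (the receptor subunit for ciliary neurotrophic factor, -4.12) and the receptor gene Gpr37 (-4.08). For some these were falls from high levels: Acsl3 stood at 45.5, 51.0 and 32.2 CPM in astrocytes and 889, 919.6 and 720.2 CPM in Müller glia, and Synpr at 31.2, 47.8 and 36.5 and 809, 634 and 618 CPM.

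**Figure D2:**
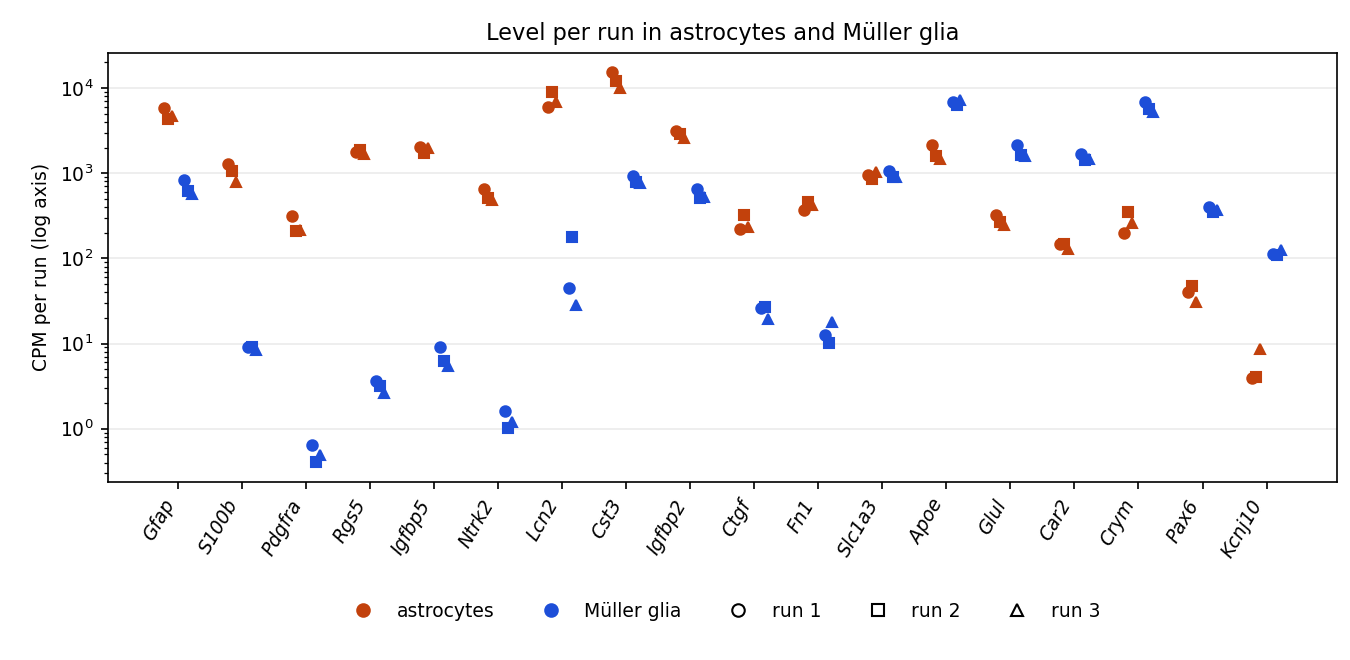
CPM on a log axis in astrocytes (orange) and Müller glia (blue), with 1 point per run (circle, square and triangle for runs 1, 2 and 3). Astrocyte and Müller values are separate in every gene shown except Slc1a3, and the spread between runs is small beside most of these differences, with Lcn2 in Müller glia as the widest.

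The fixed list of general astrocyte markers split, with 7 of 12 tested genes higher and 4 lower (median log2 1.69). The higher ones were Gja1, Pdgfra, S100b, Vax1, A2m, Gfap and Slc1a2, and the lower ones Agt, Aldh1l1, Nr2e1 and Aldoc. Aldh1l1, a folate enzyme used throughout the brain as an astrocyte marker, stood at 45.5, 33.2 and 24.7 CPM in retinal astrocytes and at 151, 155 and 118 CPM in Müller glia (log2 -2.13 ± 0.14, adjusted p = 2.00e-13). The nuclear receptor Nr2e1 stood at 31.2, 35.6 and 24.7 against 53.0, 49.1 and 47.7 CPM (log2 -0.76 ± 0.15). The glycolytic gene Aldoc stood at 924, 399 and 295 against 901, 607 and 658 CPM, with overlapping values, and its change of -0.61 turned to 0.20 when the Müller glia were matched to the astrocytes in UMIs per cell.

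Transcription factors of the optic stalk side and of the neural retina side were counted separately, leaving out Pax2, which the rule used. Of 15 factors and regulators tied to the optic stalk or the astrocyte lineage, 7 rose and 4 fell (median log2 0.21). Vax1, a homeobox gene of the optic stalk, stood at 5.20, 13.8 and 14.0 against 0.202, 1.33 and 0.420 CPM (log2 4.09 ± 0.50, adjusted p = 1.18e-07). Id4, an inhibitor of helix-loop-helix factors, stood at 241, 176 and 198 against 20.03, 10.3 and 20.5 CPM (log2 3.59 ± 0.13), and Id3 and Id1 rose by less (log2 0.93 and 0.51), where Id1 lost its call without the astrocytes richest in Lcn2 (0.15) and without the run block. Nfix fell (log2 -0.60), a call lost with Müller glia matched in UMIs per cell (-0.20).

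Of 15 factors of the neural retina, 11 fell and 2, Tbx3 and Sox9, rose (median log2 -1.23). Pax6, the eye-field gene that represses Pax2 in the developing optic cup, stood at 40.3, 46.9 and 31.1 CPM in astrocytes and 404, 348 and 373 CPM in Müller glia (log2 -3.28 ± 0.13, adjusted p = 1.53e-18). Rax, the retinal homeobox gene, stood at 62.4, 55.9 and 37.6 against 402, 369 and 384 CPM (log2 -2.95 ± 0.12). Lhx2 was lower by far less, at 160.0, 177 and 206 against 242, 253 and 279 CPM (log2 -0.58 ± 0.09). Sox9, a gliogenic factor that both cell types express, stood at 302, 298 and 344 against 221, 231 and 303 CPM, with values that overlapped, and its change of 0.27 became -0.07 in cells thinned to 3000 UMIs. Its call was lost without run 1 (0.21) and without run 2 (0.26).

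The glutamate transporter whose promoter drives the Cre stood at like levels in both classes. Slc1a3 (Glast, chr15:8634124-8710764) stood at 956, 853 and 1020.0 CPM in astrocytes and at 1059, 914 and 913 CPM in Müller glia, overlapping values that did not pass the test (log2 -0.09 ± 0.08, adjusted p = 0.43 in edgeR). Its direction depended on the cells used: it was at 0.22 (adjusted p = 0.041 in edgeR) against Müller glia taken from 1 Rlbp1 UMI per 10000, and at -0.29 (adjusted p = 0.0039) without the astrocytes of at least 50 Lcn2 UMIs per 10000. The next steps of glutamate and ion handling differed. Glul, glutamine synthetase, stood at 320.0, 266 and 244 against 2126, 1627 and 1585 CPM (log2 -2.74 ± 0.09), and the carbonic anhydrase gene Car2 at 146, 149 and 128 against 1675, 1446 and 1485 CPM (log2 -3.501 ± 0.10). Without the 9 cells described above, Glul and Car2 in astrocytes were at 258 and 85.9 CPM.

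Over the whole list of glutamate, potassium and gap junction genes, 8 of 14 fell and 5 rose (median log2 -0.89). Gja1, Slc4a4, Slc1a2 and Slc6a11 were among those that rose, and without the astrocytes richest in Lcn2 3 genes did. Slc1a2, the transporter GLT-1, stood at 91.1, 78.5 and 115 against 56.1, 71.1 and 59.99 CPM (log2 0.52 ± 0.13) and was at -0.07 without those astrocytes and 0.31, a lost call, without run 3. Of 11 retinoid genes 5 fell and 0 rose in edgeR, in DESeq2 or at an unadjusted p under 0.05 (median log2 -0.83). Among them Aldh1a1, which makes retinoic acid, stood at 41.6, 54.2 and 36.5 against 263, 249 and 256 CPM (log2 -2.57 ± 0.13).

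Genes of glial reactivity were far higher in astrocytes than in the Müller glia of the same injured retinas. Of 13 pan-reactive genes 10 rose and 3 (S1pr3, Cd44 and Osmr) did not pass the test (median log2 2.00). Lcn2, the iron-siderophore carrier lipocalin 2 (chr2:32384633-32388252), stood at 5972, 8912 and 6935 CPM in astrocytes and 45.3, 177 and 28.6 CPM in Müller glia (log2 6.80 ± 0.25, adjusted p = 5.28e-19). Serpina3n, a serine protease inhibitor, stood at 902, 840.2 and 739 against 46.1, 50.1 and 24.2 CPM (log2 4.36 ± 0.12). Every astrocyte value of both genes lay above every Müller value, although run 2 Müller glia held more Lcn2 than those of runs 1 and 3.

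Gfap was higher by log2 2.85 ± 0.09 (adjusted p = 4.28e-21), and the intermediate filament gene Vim stood at 7409, 6825 and 7509 against 3367, 3127 and 2768 CPM (log2 1.17 ± 0.08). Cp, the ferroxidase ceruloplasmin, stood at 4413, 4804 and 3804 against 1017, 1258 and 872 CPM (log2 2.00 ± 0.08). Timp1 overlapped between the classes, at 256, 384 and 254 against 140.1, 289.6 and 93.2 CPM (log2 0.82 ± 0.12). Its call was lost without the run block.

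The gene lists once used to tell A1 from A2 reactive astrocytes held equal numbers of rises. Of 12 tested A1 genes 6 rose and 1 (Amigo2) fell (median log2 0.54), and of 11 A2 genes 6 rose and 1 (S100a10) fell (median log2 1.24). C3, the complement component often taken as the A1 marker, stood at 58.5, 171 and 85.9 against 1.21, 2.67 and 1.21 CPM (log2 5.87 ± 0.20). Ptx3, a pentraxin of the A2 list, stood at 29.9, 307 and 98.8 against 5.96, 13.5 and 8.45 CPM (log2 3.72 ± 0.21), and the transglutaminase gene Tgm1 at 66.4, 60.7 and 115 against 2.89, 12.6 and 1.05 CPM (log2 4.29 ± 0.44). Run 2 astrocytes held the highest C3 and Ptx3.

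Chemokine and cytokine genes rose in 12 of 15 cases, and 1, Il33, fell (median log2 2.36). Ccl2, which attracts monocytes, stood at 302, 1479 and 1359 CPM in astrocytes and 14.0, 406 and 41.5 CPM in Müller glia (log2 3.67 ± 0.32, adjusted p = 1.83e-10). Cxcl10, which attracts T cells, stood at 155, 1315 and 500.3 against 8.30, 215 and 31.1 CPM (log2 3.41 ± 0.18). The run 2 sums of both genes include 1 astrocyte of 42535 UMIs with Ccl2 at 18502 and Cxcl10 at 12907 CPM. For both genes the astrocytes were higher within each run, but run 1 astrocytes lay below run 2 Müller glia, and both calls were lost without the run block, as the list's count fell to 7. The alarmin gene Il33 went the other way at 55.9, 52.6 and 36.5 against 478, 479.9 and 441 CPM (log2 -3.34 ± 0.12).

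Signals by which astrocytes act on vessels were mostly higher. Of 20 tested genes 14 rose and 3 fell (Edn2, Agt and Ndp; median log2 1.75), where the call of Edn2 was lost without run 2 (-2.07) and without run 3 (-2.09). Hif1a, the oxygen-sensing transcription factor, stood at 345, 390.2 and 443 against 63.5, 64.4 and 62.4 CPM (log2 2.56 ± 0.09), and its relative Epas1 at 181, 133 and 149 against 52.7, 47.3 and 55.3 CPM (log2 1.501 ± 0.11). The chemokine Cxcl12 stood at 303, 371 and 323 against 75.7, 62.5 and 50.6 CPM (log2 2.36 ± 0.11).

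Vegfa, the main growth factor for vessels, stood at 40.3, 34.8 and 18.3 CPM in astrocytes and 8.03, 5.85 and 7.51 CPM in Müller glia (log2 2.07 ± 0.25, adjusted p = 8.66e-08). Its receptors went the other way: Kdr stood at 49.4, 37.2 and 47.2 against 417, 469.9 and 497 CPM (log2 -3.46 ± 0.12) and Flt1 at 13.0, 14.6 and 17.2 against 194, 175 and 164 CPM (log2 -3.62 ± 0.16), while the other endothelial markers were at or near 0 in astrocytes. Ednrb, the endothelin receptor of astrocytes, stood at 70.3, 72.9 and 98.8 against 21.3, 52.3 and 15.6 CPM (log2 1.49 ± 0.23). Of 19 growth factor and cytokine receptors 8 rose and 4 (Cntfr, Pdgfrb, Met and Egfr) fell (median log2 0.06).

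Matrix genes rose in 21 of 27 cases, with 1 fall, the laminin gene Lama1 (median log2 2.50). Fn1, the fibronectin on which vessels and astrocytes migrate, stood at 372, 462 and 424 against 12.5, 10.1 and 18.0 CPM (log2 4.93 ± 0.13, adjusted p = 1.28e-22). Thbs1, thrombospondin 1, stood at 281, 311 and 336 against 7.62, 7.72 and 19.1 CPM (log2 4.81 ± 0.15). Sparc, a collagen-binding glycoprotein, rose less, at 3078, 2687 and 2055 against 1863, 1268 and 1154 CPM (log2 0.82 ± 0.08), and the integrin subunit gene Itgav stood at 269, 185 and 258 against 137, 123 and 133 CPM (log2 0.77 ± 0.10).

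Secreted inhibitors and binding proteins rose with the matrix. Of 16 protease inhibitor and complement genes 10 rose and 3, among them Cd59a and Timp2, fell (median log2 2.19), where the call of Timp2 was lost without any 1 of the runs (-0.25 to -0.19). Cst3, the cysteine protease inhibitor cystatin C, stood at 15284, 12118 and 9972 CPM in astrocytes and 921, 789 and 771 CPM in Müller glia (log2 3.83 ± 0.09, adjusted p = 2.38e-23). In the insulin-like growth factor axis 5 of 9 genes rose and 1, Igfbp7, fell (median log2 1.91). Igfbp3 stood at 297, 329 and 361 against 8.72, 7.94 and 10.9 CPM (log2 5.11 ± 0.11).

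**Figure D3:**
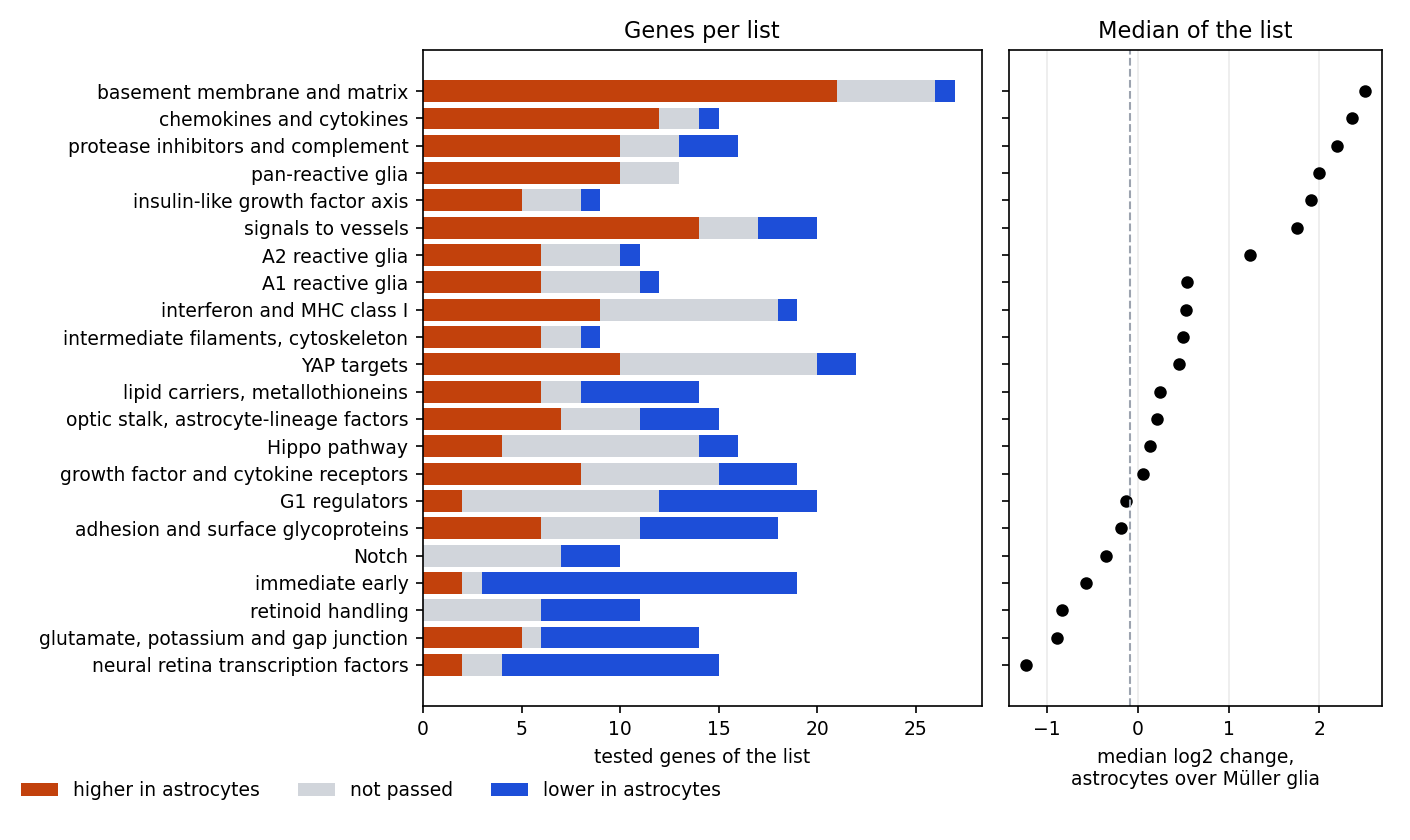
Left, the number of tested genes of each list that were higher (orange), did not pass (grey) or were lower (blue) in astrocytes by edgeR at an adjusted p under 0.05. Right, the median log2 change of each list, with the median over all tested genes (-0.09) as a dashed line; matrix (21 of 27 higher) and chemokine genes (12 of 15) lie at the top and neural retina transcription factors (11 of 15 lower) at the bottom.

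Every cell sorted here may carry Yap5SA, and none without it was measured, so YAP target genes could be compared between cell types only. Of 22 listed targets 10 rose in astrocytes and 2 (Myof and Nuak2) fell (median log2 0.45), and of 16 Hippo pathway genes 4 rose and 2 (Tead2 and Vgll4) fell (median log2 0.13). The call of Nuak2 was lost without run 1 (-0.36) and without run 3 (-0.49). Among the rises, Amotl2 (-0.16), Axl (0.03) and Lats2 (0.13) lost their calls with Müller glia matched in UMIs. Ctgf, a matricellular protein and classical target, stood at 224, 321 and 235 CPM in astrocytes and 26.1, 26.96 and 19.4 CPM in Müller glia (log2 3.37 ± 0.11, adjusted p = 2.14e-20). Cyr61, its close relative, stood at 1185, 1307 and 1568 against 1313, 1300.4 and 1879 CPM and did not pass the test (log2 -0.20 ± 0.08, adjusted p = 0.056). The mouse Yap1 gene itself stood at 23.4, 45.3 and 38.7 against 24.6, 29.2 and 28.6 CPM, overlapping values that did not pass the test (log2 0.34 ± 0.16, adjusted p = 0.11). With Müller glia matched in UMIs Yap1 was at 0.47 and just passed (adjusted p = 0.049 in edgeR).

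Müller glia were themselves mixed for these genes, so they were also set out by Igfbp2, which reached at least 10 UMIs per 10000 in 1371 of the 17653 cells. These levels are a description with no test. Igfbp2 in astrocytes, at 3133, 2889.8 and 2598 CPM, lay beside the 3422, 3308 and 3260.0 CPM of Igfbp2-high Müller glia, far above the 62.7, 63.6 and 44.3 CPM of the rest. Ctgf did not follow this split, at 28.5, 30.7 and 23.5 CPM in Igfbp2-high and 25.6, 26.4 and 18.7 CPM in other Müller glia, both far below the astrocytes. F3, the tissue factor gene and a target on the same list, stood at 571, 393 and 677 CPM in astrocytes, 87.0, 91.6 and 118 CPM in Igfbp2-high and 104, 93.98 and 139.8 CPM in other Müller glia.

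Other targets were highest in Igfbp2-high Müller glia, with astrocytes in between. Amotl2, a scaffold that holds YAP in the cytoplasm, stood at 107, 96.3 and 161 CPM in astrocytes, 265, 267 and 353 CPM in Igfbp2-high and 36.6, 37.9 and 61.8 CPM in other Müller glia. The receptor tyrosine kinase gene Axl stood at 186, 214 and 203, 352, 319.9 and 359.7 and 110.2, 104 and 90.7 CPM in the same order. The kinase gene Lats2 stood at 32.5, 37.2 and 49.4, 78.1, 71.1 and 86.2 and 11.9, 11.5 and 12.6 CPM. Amotl2 and Lats2 were named after their values were seen.

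The D-type cyclins, which drive cells from G1 into S phase, differed by member. Ccnd2 stood at 509, 431 and 473 CPM in astrocytes and 118, 102 and 85.9 CPM in Müller glia (log2 2.15 ± 0.09, adjusted p = 2.02e-17), and at 432, 407 and 355 CPM in Igfbp2-high Müller glia. Ccnd1 stood at 256, 305 and 204 CPM in astrocytes, against 393, 322 and 346 CPM in all Müller glia (log2 -0.53 ± 0.10) and 1136, 1065 and 1147 CPM in Igfbp2-high ones. Its change was -1.04 without the 9 cells and did not pass the test without the Lcn2-rich astrocytes (-0.11). Ccnd3 stood at 151, 156 and 139.6 against 336, 367 and 351 CPM (log2 -1.30 ± 0.09).

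The cycle inhibitor genes did not all pass the test. Of those that did, Cdkn1a, p21, stood at 9.11, 21.9 and 21.5 CPM in astrocytes and 33.4, 48.7 and 58.3 CPM in Müller glia (log2 -1.45 ± 0.18), and Cdkn1c, p57, at 2.60, 11.3 and 4.29 against 83.1, 59.6 and 52.9 CPM (log2 -3.30 ± 0.25). Cdkn1c was named after its values were seen. Of 20 tested G1 regulators 2 (Ccnd2 and Cdk4) rose and 8 fell (median log2 -0.13), where Cdk4 was at -0.01 with Müller glia matched in UMIs and lost its call without run 2 (0.29).

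Single astrocytes differed widely in their reactive genes, which the sums per run hide. Lcn2 ranged from 0 at the 5th percentile to 32845 CPM at the 95th, with a median of 3459 CPM, and 25 of the 176 cells had no Lcn2 UMI. Without the 9 cells described above, 147 of 167 (88.0%) held an Lcn2 UMI. Gfap was tighter, with a 5th percentile of 449, a median of 5222 and a 95th percentile of 11471 CPM, and Igfbp2 ranged from 642 to 5674 CPM around a median of 2313 CPM. These percentiles include the 9 cells, which set the lower end of Gfap. They held at most 408 CPM of it, and every other astrocyte at least 462 CPM. Astrocytes with at least 50 Lcn2 UMIs per 10000 numbered 75 (13, 30 and 32 per run), those with 5 to 50 numbered 58, and those under 5 numbered 43, among them the 9 cells described above. Median depth was alike in the 3 sets, at 14108, 15147 and 13515 UMIs, and 12600.5 in the 34 poorest without the 9.

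Since Lcn2 made these sets, the levels of other genes along them are a description. The metallothionein gene Mt1 stood at 15893, 10682 and 6203 CPM from the Lcn2-richest to the Lcn2-poorest set (8072 in the poorest without the 9 cells), and Cp at 5427, 4461 and 2530 CPM (3652 without). Serpina3n stood at 1160, 697 and 425 CPM, but at 646 without the 9 cells, near the middle set. Ccl2 stood at 1528, 1307 and 241 CPM (268 without), but in run 2 the middle set was the highest, at 2573 against 1615 CPM in the richest. That middle set held 1 cell of 42535 UMIs with Ccl2 at 18502 CPM. Igfbp2 was lowest in the Lcn2-richest set, at 2112, 3359 and 3470 CPM (3702 without). Ccnd1 stood at 122, 223 and 541 CPM, and its high value in the poorest set came down to 213, no higher than in the middle set, without the 9 cells. Vim hardly moved, at 7070, 7645 and 6816 CPM (7583 without).

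**Figure D4:**
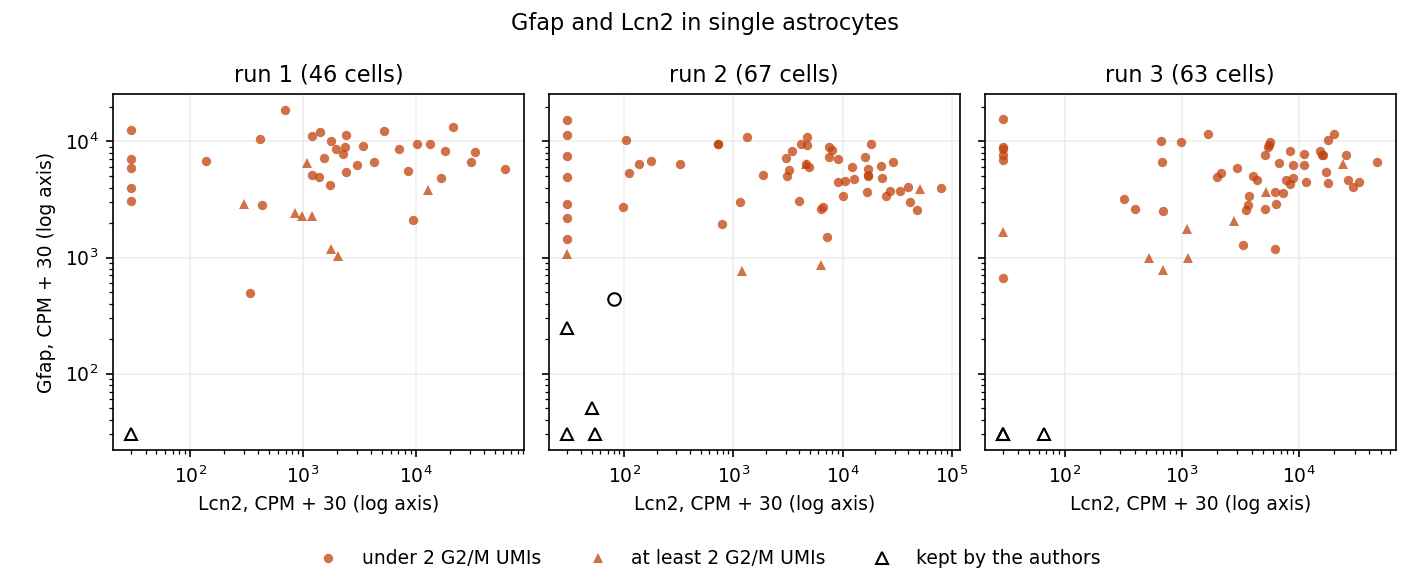
Each point is 1 astrocyte, with Lcn2 (x) and Gfap (y) as CPM + 30 on log axes, in 1 panel per run with 46, 67 and 63 cells. Most cells carry Gfap over a wide range of Lcn2, triangles (cells with at least 2 UMIs of G2/M genes after thinning) tend to lie lower, and the open black symbols mark the 9 cells that the authors kept, all at low Gfap and Lcn2.

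Part of the astrocytes were in the cell cycle. After each cell was thinned at random to 1000 UMIs, a cell with at least 2 UMIs of 48 genes of G2 and mitosis was called cycling. By this measure 9 of 46, 9 of 67 and 11 of 63 astrocytes were cycling, 16.8% ± 3.12 (SD, n = 3 runs), against 6.11% ± 0.396 of the Müller glia. The difference was 10.7 percentage points and positive in all 3 runs, with an exact paired permutation p = 0.25, two-sided, the smallest that 3 runs can give. Without the 9 cells 8 of 45, 5 of 62 and 8 of 60 were cycling, 13.1%, and the difference was 6.94 points (exact p = 0.25).

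The size and the direction of that difference rested on which cells were compared. The Müller class asked for Rlbp1, which stood at 871 CPM in its cycling and 1725 CPM in its non-cycling cells. With Müller glia taken from 1 Rlbp1 UMI per 10000 with no Pax2 and no Pdgfra UMI (22583 of 24695 cells), 16.6% of them were cycling and the difference was 0.191 points (exact p = 1.0). That limit is low: the 167 astrocytes without the 9 cells had Rlbp1 at 149 CPM, with a UMI in 83.2% of them. The wider class may thus hold cells other than Müller glia. Against it and without the 9 cells the difference turned to -3.57 points, at 2.04, -9.96 and -2.79 in runs 1, 2 and 3 (exact permutation p = 0.5). The G2 and mitosis list showed the same dependence: 34 of its 48 genes were higher in astrocytes against the main Müller class (median log2 0.82), 7 without the 9 cells, 0 by edgeR with Müller glia matched in UMIs (1 at an unadjusted p under 0.05) and 0, also unadjusted, with 23 lower, against the wider Müller class. At the limit of the measure, 25 astrocytes had 1 UMI of the list and 9 had exactly 2.

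Cycling astrocytes were then compared with the 87 non-cycling ones, those with no UMI of the 48 G2/M and 37 S phase genes after thinning, and 60 cells fell in neither class. The cycling cells held more RNA, with a median of 25670 UMIs against 12362, or 22744 in 21 cells against 12349.5 in 86 without the 9 cells. Of 4301 genes tested outside the 2 lists, 604 were higher and 609 lower in cycling astrocytes by edgeR, 28.2% in all (14.0% higher and 14.2% lower). Without the 9 cells 331 were higher and 338 lower of 3700 tested, with DESeq2 231 and 240, and without run 2 269 and 288. The rises in other cell cycle genes follow from the selection and are given as a description. Ube2t had no UMI in the non-cycling cells and was at least 30.4-fold higher, against a floor of 3 UMIs over the group, or at least 21.99-fold without the 9 cells. Tk1 changed by log2 6.58 (6.29 without the 9), Ccna2 by 5.95 (5.42) and the tubulin-binding Stmn1, at 985, 1007 and 896 against 29.1, 18.8 and 21.4 CPM, by 5.26 (5.14). Pbk, Racgap1, Cdkn3, Cenpm, Spc24 and Mad2l1 made up the rest of the 10 largest rises.

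The largest falls in cycling astrocytes, per UMI, were led by a gene of reactive glia. Chil1, a chitinase-like secreted protein of reactive glia (chr1:134182176-134190181), stood at 206, 105 and 33.7 CPM in cycling and 1861, 3210.5 and 2778 CPM in non-cycling astrocytes (log2 -4.65 ± 0.35, adjusted p = 3.69e-06), and its change without the 9 cells was -4.11. Igfbp5 stood at 748, 268 and 545 against 2463, 2489 and 2785 CPM (log2 -2.54 ± 0.21, -2.02 without the 9). The metallothionein gene Mt3 stood at 572, 213 and 251 against 1874, 1471 and 1601 CPM (log2 -2.498 ± 0.19, -1.998 without the 9). In all 3 genes the 2 classes did not overlap.

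Id3 stood at 1084, 242 and 169 against 2699.7, 1511 and 2337 CPM (log2 -2.57 ± 0.32, -2.10 without the 9), with run 1 the highest of the cycling values. The endothelin receptor gene Ednrb stood at 17.2, 9.81 and 24.1 against 90.6, 94.2 and 126 CPM (log2 -2.78 ± 0.33, -2.24 without the 9), and the cyclooxygenase gene Ptgs2 at 25.8, 3.27 and 19.3 against 68.0, 69.7 and 131 CPM (log2 -2.67 ± 0.42, -2.15 without the 9). The other 4 of the 10 largest falls were Crispld2 (log2 -3.04, -2.49 without the 9), Tgm1 (-2.96, -2.53 without the 9, adjusted p = 0.11 with DESeq2), the interferon-induced Ifit1 (-2.61, -2.46 without the 9) and Serpinf1, which codes the antiangiogenic factor PEDF (-2.52, -2.06 without the 9, adjusted p = 0.13 with DESeq2).

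Per UMI, the lists of astrocyte markers and pan-reactive genes fell, while other lists were mixed. Of 10 tested astrocyte markers 7 fell and 0 rose in cycling cells by edgeR, by DESeq2 or at an unadjusted p under 0.05 (median log2 -1.73, against -0.02 over all tested genes), or 7 of 8 without the 9 cells, and of 12 pan-reactive genes 9 fell and 0 likewise rose (median -1.16), 6 without the 9 cells. Gfap stood at 2386, 1096 and 1325 against 6969, 5658 and 5742 CPM (log2 -2.15 ± 0.14, adjusted p = 8.84e-07, -1.62 without the 9 cells). Lcn2 stood at 2421, 4710.2 and 2188 against 9582, 12441 and 8901 CPM (log2 -1.94 ± 0.11, -1.40 without the 9), and Pdgfra at 64.5, 72.0 and 67.5 against 388, 271 and 305 CPM (log2 -2.35 ± 0.21, -1.83 without the 9). The cycling cells also held more UMIs each, so levels per cell differ from levels per UMI. Per cell, Gfap was at 41.3 UMIs in cycling and 89.6 in non-cycling astrocytes, a ratio of 0.461, or 0.625 without the 9 cells, and Lcn2 at 87.9 and 151 UMIs, a ratio of 0.582, or 0.903 without them. Other ratios per cell without the 9 were 0.715 for Serpina3n, 0.760 for Cp, 0.940 for S100b, 1.14 for Timp1 and 1.56 for Cd44.

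Other reactive lists gave mixed counts, again per UMI. Of 7 tested A1 genes 5 (Iigp1, C3, Gbp2, Serping1 and H2-D1) fell, 3 did with DESeq2 and C3 alone did without the 9 cells, and Gbp2 lost its call without run 2 (-1.91) and without run 3 (-0.47). Per cell their ratios, cycling over non-cycling, were 0.416, 0.489, 0.840, 1.02 and 1.08 in that order. Without the 9 cells they were 0.650, 0.760, 1.35, 1.40 and 1.38. Of 7 A2 genes 2 (S100a10 and Emp1) rose and 2 (Tgm1 and Ptgs2) fell, and of 10 chemokine and cytokine genes 3 (Il33, Cxcl2 and Csf1) rose and 2 (Il34 and Cxcl1) fell. Emp1 lost its call with DESeq2, and Cxcl2 (0.79) and Cxcl1 (-0.80) lost theirs without run 2.

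Some genes of Müller glia rose in the cycling astrocytes. Of 18 tested Müller glia markers 5 (Spc25, Car2, Crym, Gpr37 and Lhx2) rose and 6 fell, and 2 (Spc25 and Car2) rose and 4 fell without the 9 cells. Spc25, like Spc24 above, is also a cell cycle gene, so its rise follows from the selection and does not bear on Müller identity. With DESeq2 3 rose and 4 fell, and Gpr37 (0.76 without run 1, 1.43 without run 2) and Lhx2 (0.70 without run 2) lost their calls when 1 run was left out. Car2 stood at 378, 432 and 395 CPM in cycling and 38.8, 64.1 and 66.7 CPM in non-cycling astrocytes (log2 2.66 ± 0.20, 1.99 without the 9). The retinoic acid enzyme gene Aldh1a1 stood at 103, 121 and 106 against 16.2, 39.6 and 16.7 CPM (log2 1.98 ± 0.31, 2.63 without the 9), and Il33 at 146, 154 and 120.5 against 12.9, 26.4 and 16.7 CPM (log2 2.68 ± 0.28, 2.05 without the 9). All 3 passed the test in edgeR with and without the 9 cells, and their classes did not overlap. Crym (log2 1.504, 0.63 without the 9) and Pax6 (1.43, 1.08 without the 9) passed only with the 9 cells included, and Pax6 lost its call without run 1 (0.96) or run 2 (2.03). Per cell and without the 9, Car2 was at 6.38 UMIs in cycling and 0.796 in non-cycling astrocytes, and Aldh1a1 at 2.92 and 0.235. The cycling cells held more UMIs and doublets had been kept, and the part of doublets in these values was not tested. These genes were named after their values were seen.

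Per UMI, Igfbp2 and Vim differed little and Ccnd1 rose. Per cell, Igfbp2 was at 91.1 UMIs in cycling and 38.9 in non-cycling astrocytes, a ratio of 2.34, or 2.35 without the 9 cells. Vim was at 165 and 105 UMIs per cell, a ratio of 1.58, or 1.57 without them. Igfbp2 stood at 3685, 3408 and 3297 CPM in cycling and 3247, 2602 and 2068 CPM in non-cycling astrocytes and did not pass the test (log2 0.27 ± 0.11, adjusted p = 0.08 in edgeR), although every cycling value lay above every non-cycling one. Vim stood at 7207, 5639 and 6193 against 6943, 7257 and 7369 CPM and passed as a fall (log2 -0.33 ± 0.09), but without the 9 cells its change of -0.27 did not pass, nor did it pass with DESeq2, without the run block or without run 2 (-0.25). Ccnd1 rose from 152, 124 and 85.8 to 503, 798 and 535 CPM (log2 2.22 ± 0.20, 1.76 without the 9). Anxa1, annexin A1, rose from 6.47, 41.4 and 16.7 to 348, 985 and 313 CPM (log2 4.47 ± 0.24, 4.20 without the 9), with run 2 the highest, and was named after its values were seen.

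**Figure D5:**
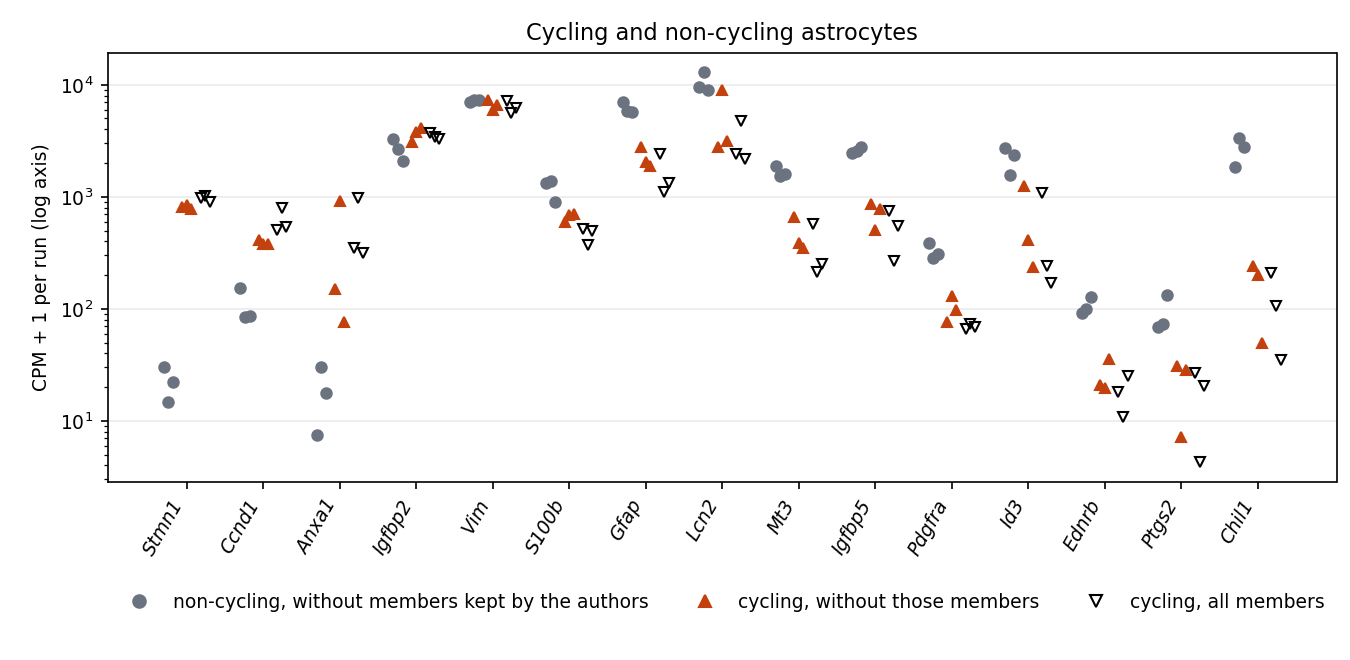
CPM + 1 on a log axis for 15 genes, with 1 point per run: non-cycling astrocytes (grey circles) and cycling astrocytes (orange triangles), both without the 9 cells that the authors kept, and all cycling astrocytes (open triangles). Stmn1, Ccnd1 and Anxa1 lie higher in cycling cells, Igfbp2 and Vim lie close in both, and Gfap, Mt3, Igfbp5, Pdgfra, Ednrb and Chil1 lie lower with or without the 9 cells.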

How the data were processed

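Single-cell RNA was measured in 3 runs of 1 group of sorted retinal cells. The deposited count table holds raw UMI counts per gene and cell, which the authors made with Cell Ranger on mm10, per the submitters' processing notes. The authors also deposited a table of natural log values for 13511 of the cells, made with Seurat 2.3.4 per those notes. Its values equalled ln(1 + 10000 × count / total) to within 5e-07, and it served only to tell which cells the authors kept.

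Of 24695 cells, 23 with under 500 genes or over 20% mitochondrial UMIs were left out, none an astrocyte. No doublet caller was run and doublets were kept. Runs 1 and 2 shared 95 barcodes, runs 1 and 3 shared 83, and runs 2 and 3 shared 108. Each class of each run was summed to 1 set of UMI counts, which pairs the classes by library, and tested with edgeR 4.0.16 (R 4.3.3): filterByExpr, TMM, its quasi-likelihood test with a block for the run, and Benjamini-Hochberg adjustment over all genes tested. The 7 genes of the rule, and in the cycling comparison the genes of both cycle lists, stayed in the library sizes and out of the tests. SE is the absolute log2 change over the square root of F. CPM are UMIs per 1000000 of a class and run. Shares were compared with exact sign-flip permutation over runs (scipy 1.17.1, numpy 2.4.6, pandas 2.3.3, Python 3.11.15), figures drawn with matplotlib 3.10.9, and random thinning used seed 1. Positions are from GENCODE M21.

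The members and the gene lists were chosen with earlier results of these data known. Named genes were the 15 largest rises and falls (10 in the cycling comparison) among called genes with an absolute log2 change of at least 1, at least 50 CPM in the higher class in every run and 1 direction in every run, leaving out rule, ribosomal, mitochondrial and unnamed predicted genes. A fixed set of 22 genes and, from each list, the called genes of highest level (at most 4) were also named. Members of lists named beside a count of 5 or fewer, and genes marked so, were named after their values were seen. Some genes that the rule names are not reported here.

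Tested on simulated data, the fit recovered 80% of 2-fold and 16% of 1.5-fold changes with 4.95% of calls false in the astrocyte comparison (13881 genes), and 58.5%, 17.2% and 1.37% in the cycling comparison (4271 genes). Alternatives were other size factors, no filter, DESeq2 1.42.0, no run block, each run left out, other limits for both classes, Müller glia matched in UMIs, non-cycling cells, thinned cells and the cells the authors kept. Müller glia from 1 Rlbp1 UMI per 10000, and leaving out shared barcodes, Lcn2-rich astrocytes or the 9 members that the authors kept (also together with the wider Müller class), were chosen after seeing the data.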

Additional observations from a re-analysis of the deposited data

How the results depend on the processing

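In the comparison with Müller glia, 127 named genes gave 2139 values under the alternatives, of which 1952 kept their direction and side of the threshold, 115 lost the call, 12 gained one and 60 changed sign. For the 46 named genes of the cycling comparison 334 of 368 values kept both and 34 lost the call. The counts of called genes were 2319 higher and 2554 lower with RLE size factors, 1738 lower with DESeq2, 901 and 1449 with cells thinned to 3000 UMIs (which leaves fewer UMIs to test) and 1833 to 1922 higher and 2004 to 2243 lower without each run. In the cycling comparison they were 231 and 240 with DESeq2, 331 and 338 without the 9 cells, and 269 to 602 higher and 288 to 597 lower without each run, lowest without run 2. The cycling difference was 5.62 points at 4 UMIs or more, 6.94 without the 9 cells, 0.191 against the wider Müller class, -3.57 with both changes together and 9.42 to 12.5 without each run. The astrocyte share was 0.466% at 2 Pax2 UMIs or more, 0.462% with Müller genes under 2 per 10000 and 0.0644% in the cells the authors kept. Where no reason is given, the cause was not tested.

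The run pairs the classes because both come from 1 library. Without the run block 1941 genes were higher and 2212 lower in astrocytes, and 511 and 505 in cycling astrocytes, and 13 named genes of the first comparison and 4 (Vim, Cxcl1, Cxcl2 and Gbp2) of the second lost their calls.

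Log2 changes that turned sign, with the cause not tested, were as follows. With Müller glia matched in UMIs Aldoc was at 0.20, Amotl2 -0.16, Cd44 0.0301, Cdk4 -0.0096, Cyr61 0.0936, Osmr 0.20 and Slc1a3 0.17. Against the wider Müller class Amotl2 was at -0.16, Axl -0.004, Cd44 0.0342, Cdk4 -0.0564, Osmr 0.24 and Slc1a3 0.22. In thinned cells Nuak2 was at 0.18, Osmr 0.0187 and Sox9 -0.0658, and in non-cycling cells S1pr3 -0.0275 and Slc1a3 0.0704. Without Lcn2-rich astrocytes S1pr3 was at -0.37, Slc1a2 -0.0659 and Timp2 0.10. Osmr was at 0.0006 with the lower limit on Müller genes, 0.12 at 2 Pax2 UMIs or more and 0.0438 without the 9 cells. Without each run Cd44 ranged from -0.37 to 0.0383, Osmr from -0.0735 to 0.0536 and S1pr3 from -0.17 to 0.21.

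Restricting both classes to the cells the authors kept leaves only the 9 chosen cells that held few or no astrocyte transcripts (1, 5 and 3 per run). In that fit 327 genes were higher and 771 lower, and its changes describe those cells and not the other 167. A2m had no UMI in the 9 cells, so its fitted change depends on the prior count. There the changes that turned sign were A2m -10.05, Acta2 -9.32, B2m -0.41, Ccl2 -1.37, Ccnd1 0.70, Cp -1.80, Cst3 -0.0175, Ctgf -0.43, Cxcl10 -0.77, Ednrb -12.61, Epas1 -1.19, F3 -0.85, Gfap -3.74, Id1 -2.42, Id3 -4.32, Ier3 -1.67, Ifitm3 -0.79, Igfbp3 -0.70, Igfbp7 0.97, Itgav -1.41, Klf2 -0.024, Lcn2 -3.71, Met 0.43, Mt2 -2.10, S1pr3 -1.91, Serpina3n -1.78, Slc1a2 -1.41, Slc6a11 -1.65, Sox9 -1.92, Sparc -0.10, Tead2 0.0421, Tgm1 -1.09 and Timp1 -0.30. With 176 astrocytes in all, 46 to 67 per run, genes of few UMIs are the least precise.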

Other observations

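Immediate early genes, the transcripts that cells switch on within minutes of a stimulus or of handling, were mostly lower in astrocytes than in Müller glia, with 16 of 19 lower and 2 (Ier3 and Klf2) higher by edgeR (median log2 -0.56), and Klf2 lost its call without run 3 (0.54). Fos stood at 1052, 1359.9 and 2559.6 CPM in the astrocytes of runs 1, 2 and 3 and at 1963, 2127 and 3395 CPM in Müller glia, and Btg2, an antiproliferative member of the list, at 263, 421 and 516 against 797, 1030.0 and 1524 CPM (log2 -1.54 ± 0.09). In both classes the level of Fos was highest in run 3. With Müller glia matched in UMIs 6 of the genes were called lower and Fos was at -0.14, and without the run block 2 were called lower. Of 10 tested Notch genes 3 (Hes5, Hes1 and Hey1) were lower and 0 higher by edgeR, by DESeq2 or at an unadjusted p under 0.05 (median log2 -0.35), and Hey1 lost its call without run 2 (-0.90). Hes1, a Notch-driven repressor, stood at 135, 158 and 218 against 312, 338 and 498 CPM (log2 -1.23 ± 0.09), and Hes5 at 0, 2.43 and 14.0 against 39.3, 71.6 and 106 CPM (log2 -3.84 ± 0.27).

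Of 19 interferon and MHC class I genes 9 were higher and 1 (Irf9) lower (median log2 0.53), with the call of Irf9 lost without any 1 of the runs (-0.40 to -0.32). Ifitm3, which hinders virus entry, stood at 3044, 3505 and 2453 against 516, 873 and 595 CPM (log2 2.14 ± 0.09), and B2m, the light chain of MHC class I, at 2132, 2258 and 1809 against 833, 1178 and 826 CPM (log2 1.08 ± 0.08). Of 14 lipid carrier and metallothionein genes 6 were higher and 6 lower (median log2 0.24). Apoe, the main lipid carrier of glia, stood at 2140.1, 1599.5 and 1464 CPM in astrocytes and 6889, 6312 and 7252 CPM in Müller glia (log2 -2.05 ± 0.10), while Mt2 stood at 8282, 7916 and 6863 against 4275, 4429.6 and 1493 CPM (log2 1.26 ± 0.15). Run 3 held the lowest Mt2 in both classes. In Müller glia the split by cell cycle was also described, with no test: Gfap stood at a mean of 159 ± 53.4 CPM in cycling and 751 ± 157 CPM in non-cycling Müller glia (SD, n = 3 runs), beside 1603 ± 689 and 6123 ± 734 CPM in cycling and non-cycling astrocytes, or 2229.7 ± 466 and 6190.1 ± 677 CPM without the 9 cells that the authors kept.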
